A study of Mus musculus with 3 samples.

Results

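The collagen chain genes are the genes that encode the alpha chains of the collagens, and 44 of the 32285 genes counted here belong to them. A gene was taken as a member when its symbol in the deposited gene list had the form of Col, a number, the letter a and a number. Levels were read in nuclei with at least 500 detected genes and at most 5% mitochondrial counts, for each library and each class of nuclei. All 44 chains had at least 1 count, and 37 had at least 30 counts in some class of nuclei over the 3 libraries together. Values are given for those 37.

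RNA of single nuclei was profiled in the mouse submandibular gland, a salivary gland in which acini secrete saliva into granular and striated ducts and myoepithelial cells wrap the acini. The mice were wild type in every group, and each group is 1 library. The first group had no treatment and was not irradiated. The second was irradiated and given saline, and the remaining group was irradiated and given pilocarpine, a muscarinic agonist that drives saliva secretion. The titles place both irradiated groups at 90 days after irradiation, with pilocarpine from day 30 to day 90, while the protocol gives 93 days. The label of the non-irradiated group names no saline. The number of mice in a library, their sex, their age and the radiation dose are not given in the sources used here. Nuclei were released by machine from frozen glands, stained with DAPI, sorted and loaded on a droplet kit that reads the 3' end of transcripts. With 1 library per group there is no replicate error and no test between groups. The intervals below are 95% intervals that cover counting error only.

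Collagens are triple helices of 3 alpha chains, which fold in the endoplasmic reticulum and are trimmed and crosslinked outside the cell. Fibrillar collagens give connective tissue its tensile strength, type IV chains form the network of basement membranes, and type VI makes beaded filaments around cells. Smaller families bind to fibrils, anchor epithelia or span the cell membrane. In salivary glands fibroblasts lay down the stroma, and a basement membrane lies under acini, ducts and myoepithelial cells.

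The 3 libraries gave 10635, 8622 and 8376 nuclei in the order non-irradiated, irradiated + saline and irradiated + pilocarpine, with a median of 1536, 2113 and 2048 unique molecular identifiers (UMIs) per nucleus. Collagen chains took 23086, 21702 and 29457 of these UMIs, or 903, 744 and 883 CPM, where CPM is the UMIs of a gene per 1e6 UMIs of all genes. Pairs of libraries shared 28 to 33 barcodes. Classes were rebuilt from marker genes, with the collagen chains left out of the clustering, and their names may differ from those of the study. The fibroblast-like cluster had 10 of its 11 markers at 0.5 or more of the highest cluster's level. The same held for 8 of 9 myoepithelial markers and for 10 of 10 endothelial markers in their clusters. An unnamed cluster of mixed markers, called cluster 8, had a median of 8546 UMIs per nucleus and held 26.4%, 22.4% and 33.5% of the collagen UMIs of the 3 libraries. The doublet caller marked 0 barcodes in each library and so had not worked, and no doublets were removed. Acinar marker RNA was also read in other classes: the summed level of the 9 acinar markers in fibroblast-like nuclei was 40901, 27995 and 45384 CPM, against 56093, 65300 and 62744 CPM in acinar-like nuclei, and none of the 9 was at 0.

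Several chain genes share a start region, and these regions are printed since the pairs are followed through the classes below. In build GRCm38, Col4a4 and Col4a3 lie head to head on chromosome 1 with 71 bases between their starts. Col4a6 and Col4a5 lie head to head on chromosome X with 1308 bases between them. Col4a1 and Col4a2 are head to head on chromosome 8 and overlap by 22 bases, and no sequence is printed for them. The starts of Col7a1, the chain with the most UMIs in acinar-like nuclei, and of Col11a1, whose UMIs lay mostly in the non-irradiated library, are added. The sequences are the bases between the starts of the first pair and otherwise the bases before the start, 5' to 3' on the strand named, from RefSeq on GRCm38.p6. Capitals mark CCAAT and GGGCGG, read on either strand, and TATAAA, which was searched too, was in none of them.
Col4a4-Col4a3, chr1:82586850-82586920, plus strand: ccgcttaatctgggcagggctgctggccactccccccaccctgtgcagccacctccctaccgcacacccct
Col4a6, chrX:141474077-141474326, minus strand: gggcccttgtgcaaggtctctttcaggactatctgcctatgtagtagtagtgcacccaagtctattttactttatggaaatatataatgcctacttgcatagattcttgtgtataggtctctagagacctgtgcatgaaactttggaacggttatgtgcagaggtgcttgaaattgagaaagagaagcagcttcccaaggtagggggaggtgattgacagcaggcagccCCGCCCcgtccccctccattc
Col4a5, chrX:141475169-141475384, plus strand: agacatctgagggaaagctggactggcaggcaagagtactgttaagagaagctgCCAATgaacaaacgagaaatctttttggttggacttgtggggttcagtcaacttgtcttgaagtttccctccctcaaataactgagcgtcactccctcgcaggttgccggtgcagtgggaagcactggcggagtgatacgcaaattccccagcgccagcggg
Col7a1, chr9:108953336-108953585, plus strand: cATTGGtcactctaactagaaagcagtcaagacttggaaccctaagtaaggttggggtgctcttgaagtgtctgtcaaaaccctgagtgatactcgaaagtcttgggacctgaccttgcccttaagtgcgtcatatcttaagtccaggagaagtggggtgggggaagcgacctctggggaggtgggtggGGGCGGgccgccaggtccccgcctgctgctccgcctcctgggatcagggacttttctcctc
Col11a1, chr3:114030290-114030539, plus strand: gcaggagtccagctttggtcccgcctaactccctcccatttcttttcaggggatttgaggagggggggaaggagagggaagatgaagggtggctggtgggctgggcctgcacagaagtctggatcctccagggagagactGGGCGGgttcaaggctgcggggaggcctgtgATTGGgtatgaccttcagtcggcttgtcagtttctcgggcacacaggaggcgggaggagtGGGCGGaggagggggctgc

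In the 250 bases before the RefSeq starts of all genes, GGGCGG was found in 32.7% of 32851 windows and in 22 of 38 windows of 35 chain genes. CCAAT was found in 33.8% of all windows and in 13 of the 38, and TATAAA in 12.4% of all windows and in 5 of the 38. A match of letters is a description and shows no binding.

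Which nuclei carried which chain was read from CPM summed over the nuclei of a class. Among classes with at least 30 UMIs of the chain, 17 of the 37 chains were highest in fibroblast-like nuclei, 8 in myoepithelial-like, 4 in Schwann-like, 3 in acinar-like, 2 in endothelial-like and 1 in granular duct-like nuclei, and 2 in unnamed clusters. In 31 of the 37, that class was highest in each of the 3 libraries. The minimum left out smaller classes with higher levels for some chains. Col8a2 was at 1.27 CPM in cluster 8 on 30 UMIs but at 24.7 in T or NK-like nuclei on 14. Col9a3 was at 9.93 CPM in myoepithelial-like nuclei on 37 UMIs but at 21.0 in unnamed cluster 11 on 27. Col19a1 was at 0.939 CPM in acinar-like nuclei on 34 UMIs but at 7.16 in pericyte or smooth muscle-like nuclei on 2. When each library was clustered alone, the highest named class was the same in 97 of 111 pairs of chain and library. Fibroblast-like nuclei were 5.52%, 6.50% and 8.63% of all nuclei and held 24.8%, 31.9% and 25.5% of the collagen UMIs. Acinar-like nuclei were 65.7%, 41.2% and 56.2% of all nuclei and held 23.6%, 15.2% and 12.5% of the collagen UMIs, most of them Col7a1.

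**Figure D1:**
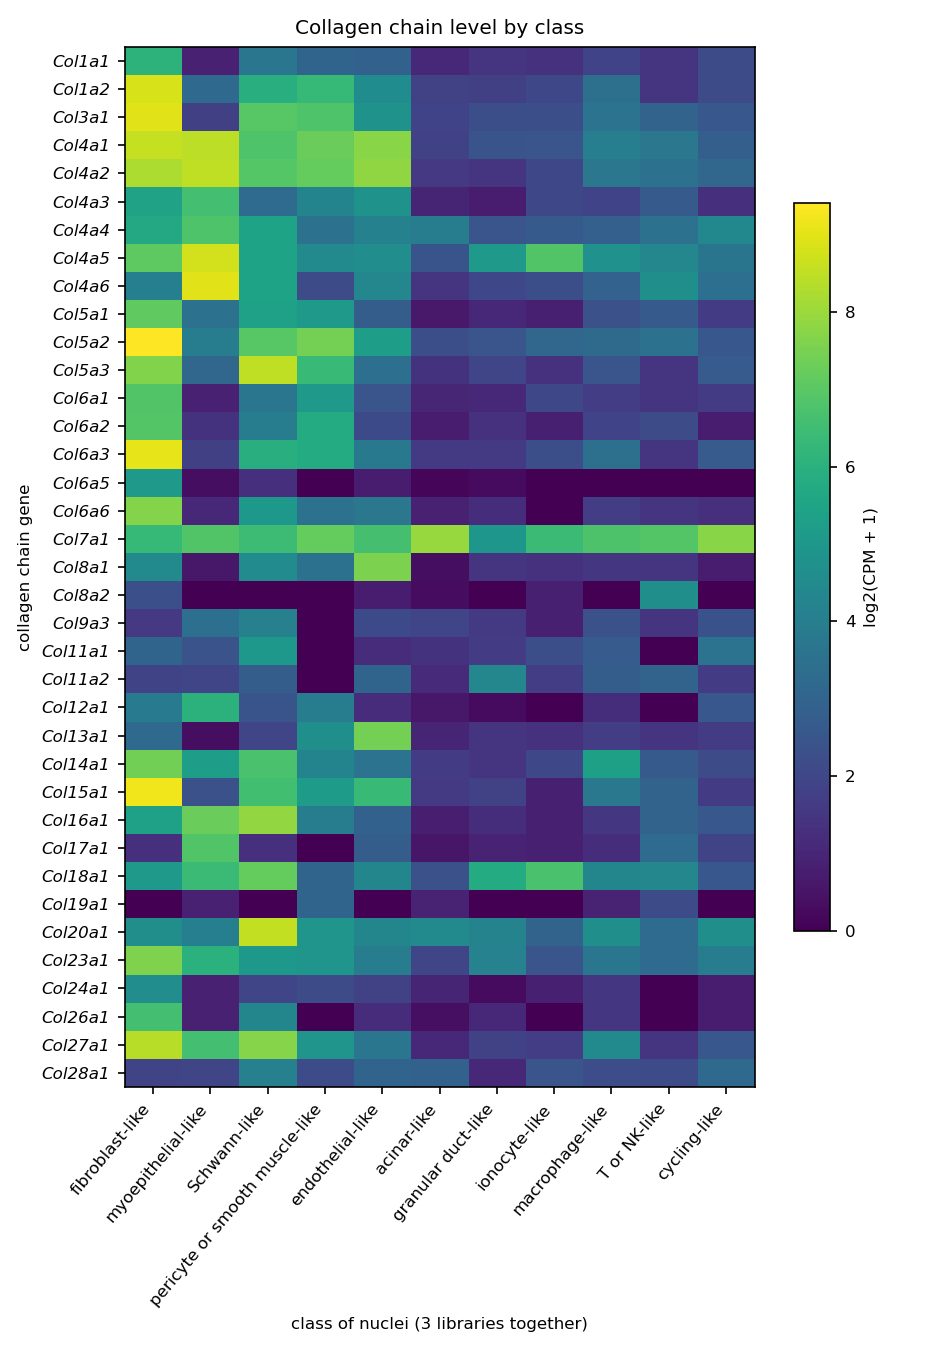
Level of the 37 collagen chains with values (rows) in 11 named classes of nuclei (columns), as log2(CPM + 1) over the 3 libraries together. Col1a2, Col3a1, Col5a2 and the type VI chains shown are brightest in fibroblast-like nuclei, Col4a5 and Col4a6 in myoepithelial-like nuclei, Col8a1 and Col13a1 in endothelial-like nuclei, and Col7a1 is visible in every class.

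Of the fibrillar chains, Col1a1, Col1a2, Col3a1, Col5a1, Col5a2, Col24a1 and Col27a1 were highest in fibroblast-like nuclei, and Col5a3, Col11a1 and Col11a2 in others. Col1a2, a chain of type I collagen, was at 537, 438 and 421 CPM in the 3 libraries, and Col3a1, the chain of type III, at 570, 490 and 470 CPM. Both were highest in the non-irradiated library and close to each other in the irradiated ones. Col1a1, the other chain of type I, was at 68.9, 86.1 and 49.6 CPM. Scaled by the length of the gene, which matters where unspliced RNA is counted, Col1a1 was at 3.95 CPM per kb of gene, Col1a2 at 12.4 and Col3a1 at 13.2 over the libraries together. The type V chain Col5a2 had the most UMIs of any chain in these nuclei and was at 675, 795 and 588 CPM. In acinar-like nuclei, which should lack fibrillar chains, Col1a2 was at 4.04, 1.00 and 2.46 CPM and Col3a1 at 3.73, 1.45 and 2.70 CPM.

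Col5a3, a type V chain that can replace another in the type V helix, was high in both fibroblast-like and Schwann-like nuclei. In fibroblast-like nuclei 259, 150 and 298 UMIs gave 274, 129 and 200 CPM. The irradiated + saline library was lowest and its interval did not reach those of the other libraries. In Schwann-like nuclei, of which there were 57 to 73 per library, Col5a3 was at 378, 355 and 352 CPM. Schwann-like nuclei also held the highest levels of Col20a1, a fibril-associated chain, at 335, 367 and 415 CPM, and of Col16a1, another of that group, at 206, 213 and 277 CPM. Too few Schwann-like nuclei were present for a comparison between libraries.

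Type VI chains were found in fibroblast-like nuclei in every library. Col6a3, the longest type VI chain, was at 553, 593 and 476 CPM. Col6a1 was at 84.8, 132 and 117 CPM and Col6a2, its neighbour on chromosome 10, at 102, 153 and 103 CPM. The alternative chains Col6a5 and Col6a6, which adjoin each other on chromosome 9 and can stand in for Col6a3, were at 45.6, 30.2 and 26.8 CPM and at 263, 194 and 167 CPM. Both were highest in the non-irradiated library. Per kb of gene, these 5 chains were between 0.314 and 6.84 CPM in fibroblast-like nuclei and between 0.00257 and 0.0578 CPM in myoepithelial-like nuclei.

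The 6 type IV genes lie in 3 head-to-head pairs, and the pairs behaved differently between classes. Values here are CPM per kb of gene over the 3 libraries. Whether unspliced RNA was counted is not known here, and the order within a pair can depend on this scaling. Unscaled, Col4a1 and Col4a2 were at 358 and 363 CPM in myoepithelial-like nuclei. Col4a1 and Col4a2, whose chains make the network common to nearly all basement membranes, were near each other in the fibroblast-like class (3.32 and 2.24), in the myoepithelial-like class (3.13 and 2.66) and in the endothelial-like class (1.86 and 1.70). Col4a3 and Col4a4, best known from kidney basement membrane, were near each other in fibroblast-like nuclei (0.309 and 0.364) and in myoepithelial-like nuclei (0.715 and 0.797). In endothelial-like nuclei they were at 0.203 and 0.118 on 42 and 25 UMIs. In granular duct-like nuclei they were at 0.00491 and 0.0336 on 3 and 21 UMIs, and in ionocyte-like nuclei at 0.0226 and 0.0387 on 4 and 7 UMIs. In acinar-like nuclei they were apart: Col4a4 was at 0.108 on 543 UMIs and Col4a3 at 0.00715 on 35 UMIs. This held in each library, with Col4a4 at 0.0974, 0.116 and 0.113 and Col4a3 at 0.0117, 0.00471 and 0.00470.

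Col4a5 and Col4a6 were both high in myoepithelial-like nuclei, at 2.01 and 1.65 CPM per kb. Unscaled they were at 431 and 510 CPM, so their order there depends on the scaling. Some other classes held Col4a5 with little Col4a6. In ionocyte-like nuclei Col4a5 was at 0.540 on 151 UMIs and Col4a6 at 0.0124 on 5 UMIs, and in granular duct-like nuclei at 0.156 on 151 UMIs and 0.0100 on 14 UMIs. In fibroblast-like nuclei Col4a5 was at 0.619 and Col4a6 at 0.0505. Of the pair, the same chain was thus the higher one in each of these 3 classes. In endothelial-like nuclei the pair was nearer, at 0.110 and 0.0636 on 36 and 30 UMIs. Unnamed cluster 18 held both chains, with Col4a5 at 84.2, 220 and 197 CPM and Col4a6 at 67.4, 160 and 205 CPM, unscaled.

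Myoepithelial-like nuclei also held Col17a1, a membrane-spanning chain of hemidesmosomes, at 108, 153 and 102 CPM, and Col12a1, a fibril-associated chain, at 77.5, 87.8 and 50.8 CPM. Col16a1 was at 177, 178 and 132 CPM. Col18a1, a basement membrane chain that carries heparan sulfate and yields endostatin, was at 58.2, 88.9 and 89.4 CPM. It was also found in ionocyte-like nuclei at 105, 106 and 95.3 CPM, with overlapping intervals. Over the libraries together, Col18a1 was highest in Schwann-like nuclei, at 143 CPM on 97 UMIs. Col15a1, its nearest relative, was instead a chain of fibroblast-like nuclei, at 708, 643 and 464 CPM. The fibril-associated Col14a1 was at 231, 142 and 151 CPM there, and the membrane-spanning Col23a1 at 172, 236 and 164 CPM.

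Summed over all chains, the collagen level of fibroblast-like nuclei was 6057, 5967 and 5035 CPM, from 5715, 6927 and 7506 UMIs in 587, 560 and 723 nuclei. Irradiated + saline over non-irradiated, the ratio was 0.985 (interval 0.951 to 1.02). Irradiated + pilocarpine was at 0.844 of irradiated + saline (0.817 to 0.872) and at 0.831 of non-irradiated (0.803 to 0.860). The comparisons share libraries and are not independent. Differences of this size moved with the processing: with each nucleus thinned to 800 UMIs, the first 2 ratios became 0.892 and 0.957, and with each nucleus given equal weight both became 0.920. The level of irradiated + pilocarpine against non-irradiated kept between 0.797 and 0.892 over 11 other settings. In sub-clusters 0, 1 and 2 the first ratio was lower than over the class. The summed level was 7830, 6640 and 6384 CPM in sub-cluster 0, 8132, 6681 and 6579 CPM in sub-cluster 1, and 3449, 2739 and 2626 CPM in sub-cluster 2. In each of these the interval of the non-irradiated library lay above those of both irradiated libraries, which overlapped. In sub-cluster 3, with 12, 17 and 23 nuclei, the level was 5985, 6761 and 6775 CPM and all intervals overlapped. The sub-clusters were unequally filled: sub-cluster 0 held 377, 181 and 334 nuclei, sub-cluster 1 held 51, 297 and 229, and sub-cluster 2 held 147, 65 and 137. The 7 Schwann markers, of which 1 was at 0 in irradiated + saline and 0 in the other libraries, summed to 2298, 4259 and 2542 CPM. The summed fibroblast markers of these nuclei were 7103, 9944 and 7645 CPM and the summed acinar markers were lowest in irradiated + saline, as given above. The part of these marker levels in the summed ratios and in those of single chains below was not tested.

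Irradiation without pilocarpine was compared first, chain by chain, in fibroblast-like nuclei. A chain is called higher or lower here when its CPM ratio reached 1.5-fold, among genes with at least 30 UMIs in the libraries compared. Of 28 chains, 4 were higher (14.3%, against 12.6% of all genes) and 8 were lower (28.6%, against 13.8% of all genes). The median log2 ratio was -0.04 for the chains and -0.01 for all genes tested. The share of higher chains was thus near that of all genes.

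The lower chains included Col5a3, at a ratio of 0.471 (0.382 to 0.578), which stayed past 1.5-fold in 10 of 10 other processing settings, 3 of them chosen after seeing the data. Col4a3 was at 71.0 CPM in the non-irradiated and 32.7 CPM in the irradiated + saline library, a ratio of 0.461 (0.301 to 0.696), also past 1.5-fold in 10 of 10 settings. Its pair gene Col4a4 went from 72.1 to 43.1 CPM, a ratio of 0.598 (0.406 to 0.874), past 1.5-fold in 8 of 10. Col14a1 had a ratio of 0.615 (0.499 to 0.757) and passed in 9 of 10. The intervals of the other called chains Col4a6, Col6a5 and Col20a1 reached 1, and Col7a1 is treated below.

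The same direction was seen for Col5a3, Col14a1 and Col4a3 within sub-clusters 0 and 1 of the fibroblast-like nuclei. The other sub-clusters are not given here for these chains. Col5a3 was at 378, 173 and 261 CPM in sub-cluster 0 and at 278, 137 and 257 CPM in sub-cluster 1, whose leading genes include the interferon-induced Cxcl10, Oasl1 and Gbp4. Col14a1 was at 335, 115 and 160 CPM in sub-cluster 0 and at 296, 163 and 198 CPM in sub-cluster 1. Col4a3 was at 82.5, 15.7 and 29.3 CPM in sub-cluster 0 and at 102, 45.2 and 47.5 CPM in sub-cluster 1. In each of these 6 sets of values the non-irradiated library was highest, although in sub-cluster 1 it held only 51 nuclei and 11 UMIs of Col4a3, and its interval for Col5a3 overlapped that of irradiated + pilocarpine.

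The higher chains were Col4a2, Col6a1, Col6a2 and Col24a1, and none of them stayed past 1.5-fold in every setting. Col4a2 had a ratio of 1.52 (1.28 to 1.80) and its partner Col4a1 one of 1.31 (1.14 to 1.51), from 335 to 439 CPM. Col6a1 was at 1.55 (1.18 to 2.06) and Col6a2 at 1.51 (1.17 to 1.95). Col24a1, a minor fibrillar chain whose gene overlaps another counted gene on the same strand, was at 13.8, 39.6 and 17.4 CPM on 13, 46 and 26 UMIs. Its ratio of 2.88 (1.53 to 5.80) became 0.980 when the sub-clusters had equal weight. It lay mostly in sub-cluster 1, at 64.8, 57.5 and 31.7 CPM, and that sub-cluster made up 51, 297 and 229 of the nuclei.

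**Figure D2:**
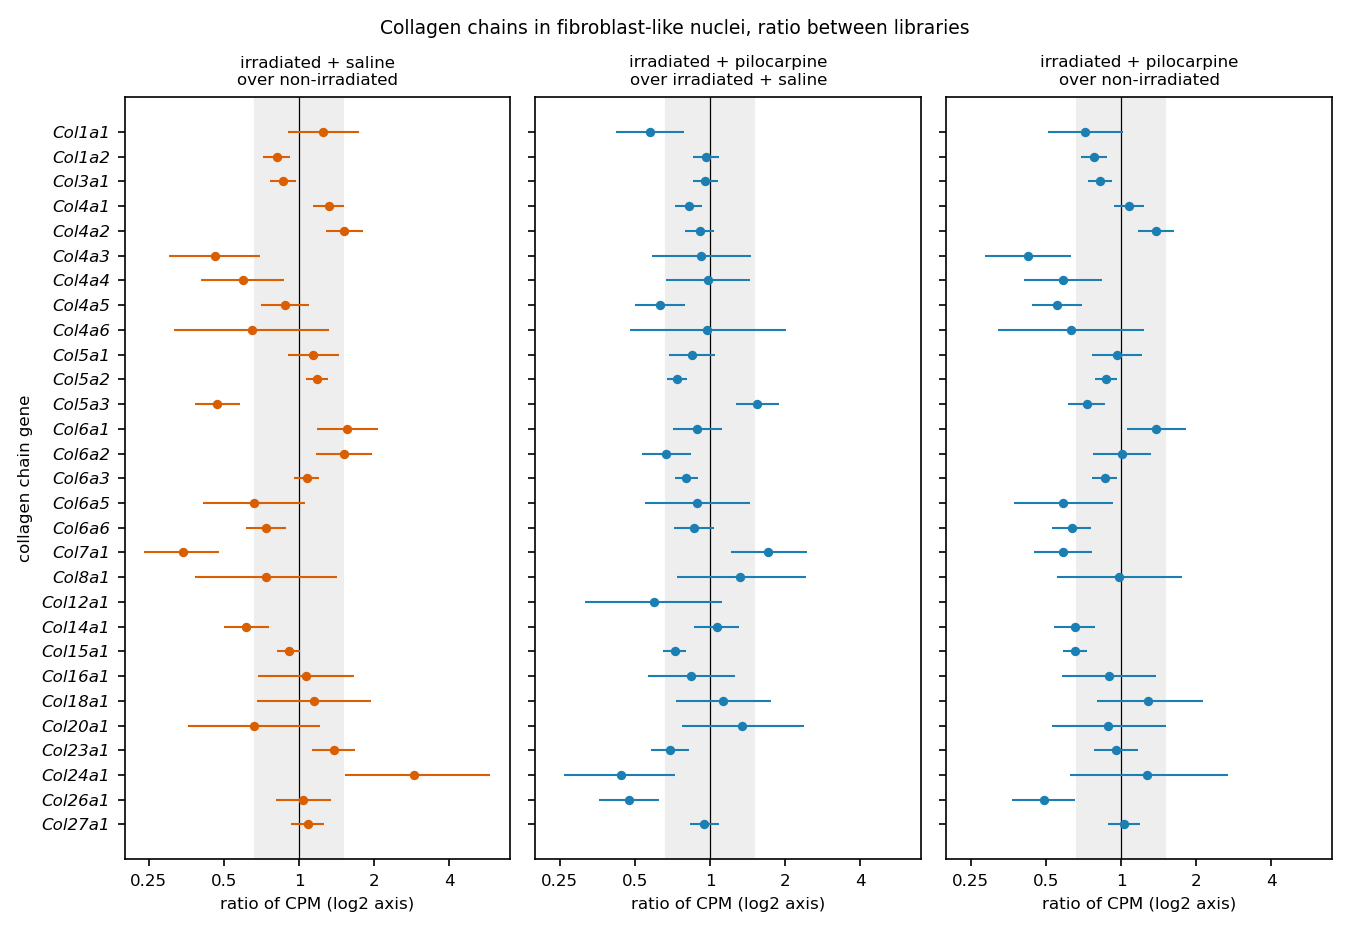
CPM ratio between 2 libraries for each collagen chain with at least 30 UMIs in them, in fibroblast-like nuclei (x axis on a log2 scale). Points are ratios, bars 95% intervals for counting error, and the grey band marks less than 1.5-fold. Col5a3 lies left of the band in the first panel (0.471) and right of it in the second (1.55), and Col26a1 lies left of it in both pilocarpine panels (0.474 and 0.492).

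Pilocarpine against saline, both after irradiation, gave 2 higher chains of 29 in fibroblast-like nuclei (6.90%, against 12.0% of all genes) and 5 lower chains (17.2%, against 7.34%). Col5a3 was higher with a ratio of 1.55 (1.27 to 1.90), past 1.5-fold in 10 of 10 settings, and its level of 200 CPM lay between those of the other libraries. Col26a1, a chain of a small collagen-like glycoprotein, was at 119, 123 and 58.4 CPM on 112, 143 and 87 UMIs. Only the pilocarpine library was low, with a ratio of 0.474 to irradiated + saline (0.359 to 0.623), past 1.5-fold in 10 of 10 settings. Within sub-cluster 1 Col26a1 was at 139, 152 and 91.0 CPM and within sub-cluster 0 at 174, 121 and 85.4 CPM. An intronic gene on the same strand as Col26a1 was also counted, so some of its reads may be assigned there.

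Col1a1 had a ratio of 0.576 (0.421 to 0.786) between pilocarpine and saline, while its type I partner Col1a2 was at 0.961 (0.854 to 1.08). The Col1a1 call passed in 6 of 10 settings. Col4a5 was at 171, 150 and 94.6 CPM, a ratio of 0.631 (0.502 to 0.792) to saline that passed in 5 of 10. Col24a1 was lower at 0.440 (0.261 to 0.727), and the interval of Col12a1 reached 1. Without the call rule, 10 of the 29 chains had an interval wholly below 1 and 2 wholly above it. The same shares over all genes were not computed, so these counts are not read as a result about the chains. The median log2 ratio was -0.17 for the chains and 0.02 for all genes tested.

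Irradiated + pilocarpine against non-irradiated gave 0 higher chains of 28 (against 10.7% of all genes) and 10 lower chains (35.7%, against 6.84%). Lower were Col4a3, Col4a4, Col4a5, Col4a6, Col6a5, Col6a6, Col7a1, Col14a1, Col15a1 and Col26a1. The median log2 ratio was -0.25 for the chains and -0.01 for all genes tested. Col26a1 at 0.492 (0.367 to 0.656) and Col4a5 at 0.554 (0.439 to 0.699) passed in 10 of 10 settings, and Col4a3 at 0.425 (0.285 to 0.629) in 9 of 10. Col15a1 was at 0.655 (0.588 to 0.729), just past the threshold, and passed in 4 of 10. With a minimum of 1000 genes Col4a4 turned to 1.19, so its call rests on that choice. The interval of Col4a6, at 0.633 (0.323 to 1.24), reached 1, and it turned to 3.05 in the same setting. The abundant Col1a2 and Col3a1 were at 0.783 (0.695 to 0.882) and 0.823 (0.735 to 0.923).

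**Figure D3:**
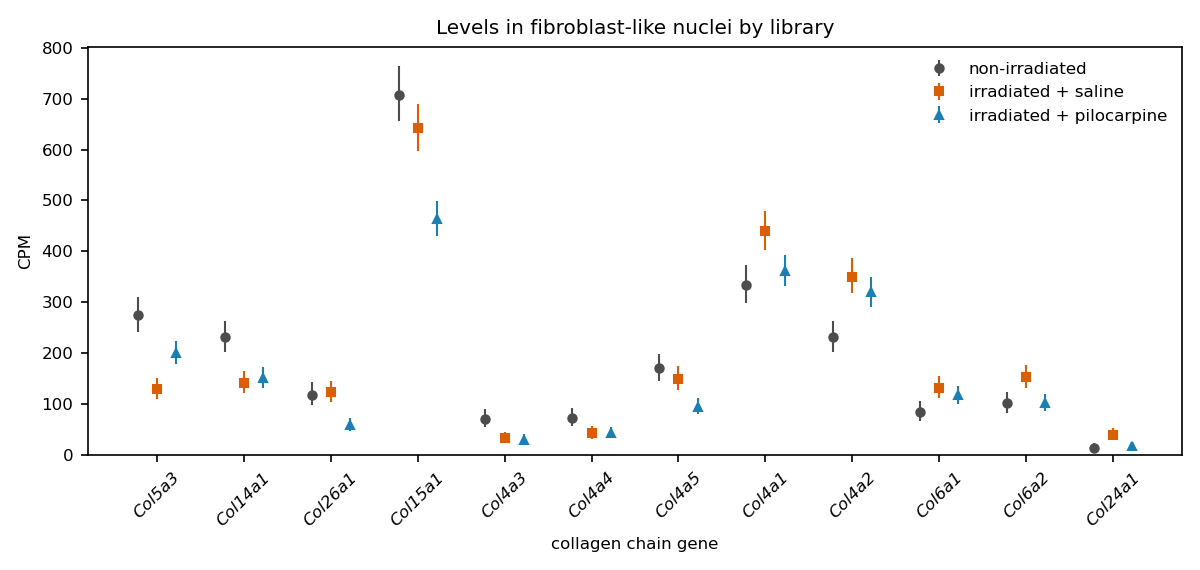
Level in CPM (y axis) of 12 collagen chains (x axis) in fibroblast-like nuclei of each library. Points are levels and bars 95% Poisson intervals. Col5a3 is lowest in irradiated + saline (129 CPM), Col26a1 is lowest in irradiated + pilocarpine (58.4 CPM), and Col4a3 and Col14a1 are highest in the non-irradiated library.

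Other genes of the collagen pathway were followed in the same nuclei. Of 24 genes of synthesis and folding, 19 could be measured between irradiated + saline and non-irradiated, with 3 higher and 3 lower (against 12.6% and 13.8% of all genes). Of 18 genes of processing and crosslinking 12 could be measured, with 2 higher and 1 lower. Of 12 collagenases, inhibitors and uptake genes 7 could be measured, with 3 higher (Mmp3, Ctsk and Timp3) and 0 lower, and of 11 receptors 7 could be measured, with 0 higher and 1 lower. Timp3, an inhibitor of matrix metalloproteinases held in the matrix, was at 181, 525 and 339 CPM, a ratio of 2.89 (2.44 to 3.45) between irradiated + saline and non-irradiated. Ctsk, which encodes the collagen-degrading cathepsin K, was at 46.5 CPM in irradiated + saline against 22.3 in non-irradiated nuclei. Adgrg6, a receptor that binds type IV collagen, was at 36.2 against 72.1 CPM, a ratio of 0.502 (0.333 to 0.748), and the procollagen proteinase gene Tll1 was at 0.550 (0.309 to 0.961).

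Between pilocarpine and saline, synthesis and folding had 5 higher and 3 lower of 22 measured, processing and crosslinking 0 and 2 of 13, collagenases and uptake 0 and 2 of 7, and receptors 0 and 1 of 7, against 12.0% higher and 7.34% lower of all genes. Lum, a fibril-spacing proteoglycan that also served as a fibroblast marker, was at 0.600 (0.469 to 0.766). Tll2, a relative of Tll1, was at 0.467 (0.306 to 0.705). The 2 largest ratios, 1.66 for Creb3l1 and 1.62 for P4hb, belong to a transcription factor gene that was itself an acinar marker and to a folding enzyme gene. The acinar marker sum of these nuclei was 45384 against 27995 CPM, and its part in both ratios was not tested. Against non-irradiated, Timp3 was at 1.87 (1.57 to 2.24), Mmp3, which encodes stromelysin, at 2.06 (1.06 to 4.32), Tll2 at 0.398 (0.260 to 0.604) and Tll1 at 0.614 (0.369 to 1.02).

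In myoepithelial-like nuclei the summed collagen level was 2918, 3065 and 2472 CPM. Between irradiated + saline and non-irradiated the ratio was 1.05 (0.992 to 1.11), with 2 of 14 chains higher (14.3%, against 10.6% of all genes) and 0 lower (against 8.67%). Col14a1 was at 18.0, 41.0 and 41.4 CPM on 13, 36 and 88 UMIs, a ratio of 2.28 (1.18 to 4.69) for saline and 2.30 (1.28 to 4.49) for pilocarpine against non-irradiated. It was thus lower in the non-irradiated library here, whereas in fibroblast-like nuclei it was higher there. Col18a1 had ratios of 1.53 (1.04 to 2.28) and 1.54 (1.10 to 2.20), and a protein-coding gene overlaps it on the opposite strand.

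Pilocarpine against saline gave 0 higher chains of 18 (against 12.0%) and 2 lower (11.1%, against 7.30%) in these nuclei. The type IV chains Col4a5 and Col4a6 were at 462, 481 and 399 CPM and at 586, 612 and 442 CPM, with ratios of 0.829 (0.737 to 0.934) and 0.721 (0.648 to 0.803). Col12a1 was lower at 0.579 (0.428 to 0.785). Against non-irradiated, 3 of 16 were higher (18.8%, against 13.3%) and 3 lower (18.8%, against 5.18%). The summed ratio of 0.807 (0.770 to 0.845) between pilocarpine and saline was 0.949 without the sub-cluster that was lowest in myoepithelial markers. That sub-cluster had the acinar marker Creb3l1 among its leading genes and made up 79, 52 and 133 of 356, 403 and 811 nuclei. The summed acinar markers were 35033, 31798 and 43957 CPM and the myoepithelial markers 6195, 6233 and 4641 CPM, and their part was not tested.

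In endothelial-like nuclei the chains of note were Col4a1, Col4a2, Col8a1 and Col13a1. The summed level was 1564, 1334 and 1205 CPM, from 616, 619 and 808 UMIs. Of these UMIs, 121, 81 and 283 lay in sub-cluster 4, with 11, 4 and 22 nuclei. The leading genes of that sub-cluster included Myh11, Trp63 and Lama2, markers of other classes. Its fibroblast and myoepithelial markers summed to 2314 and 1650 CPM, against 4976 CPM for its endothelial markers. The part of this sub-cluster in the summed level and in the chains below was not tested. Col8a1, a short-chain collagen of vessel walls and the subendothelial layer, was at 254, 252 and 96.9 CPM on 100, 117 and 65 UMIs. The pilocarpine library was low against both others, with a ratio of 0.384 (0.279 to 0.525) to saline, past 1.5-fold in 10 of 10 settings, and of 0.382 (0.275 to 0.527) to non-irradiated, in 9 of 10. Its level was highest in sub-cluster 2, led by genes of arterial endothelium such as Sox17 and Sema3g, where 78, 84 and 32 of these UMIs in 49, 23 and 39 nuclei gave 1287, 2424 and 748 CPM. There the saline library was highest and the pilocarpine library lowest, and the saline library held the fewest nuclei. The 10 endothelial markers summed to 9463, 10243 and 8405 CPM in endothelial-like nuclei, with none at 0, and the 9 acinar markers to 44568, 43156 and 52284 CPM, with none at 0. The 8 granular duct markers, with 1, 0 and 1 at 0, were at 2343, 5795 and 1931 CPM. The 9 myoepithelial markers, with 2, 3 and 1 at 0, were at 168, 73.3 and 334 CPM, and the 9 pericyte or smooth muscle markers, with 1, 1 and 3 at 0, at 107, 79.7 and 258 CPM. Their part in the Col8a1 ratios was not tested.

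Col13a1, a membrane-spanning chain, was at 142, 239 and 145 CPM in endothelial-like nuclei. The ratio was 1.68 (1.21 to 2.36) between saline and non-irradiated and 0.605 (0.456 to 0.801) between pilocarpine and saline. The second ratio turned to 1.09 when each library was clustered alone. Col13a1 lay mostly in sub-cluster 0, at 316, 467 and 397 CPM, where the interval of each library overlapped that of the next. Col4a1 was at 294, 198 and 176 CPM and Col4a2 at 241, 213 and 239 CPM. In the first comparison 1 of 7 chains was higher (14.3%, against 10.5%) and 3 were lower (42.9%, against 9.75%). In pilocarpine against saline 1 of 8 was higher (against 11.7%) and 3 lower (against 10.3%), and against non-irradiated 0 of 9 were higher (against 11.7%) and 4 lower (against 8.73%). Col7a1 accounts for 1 call in each of these comparisons.

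**Figure D4:**
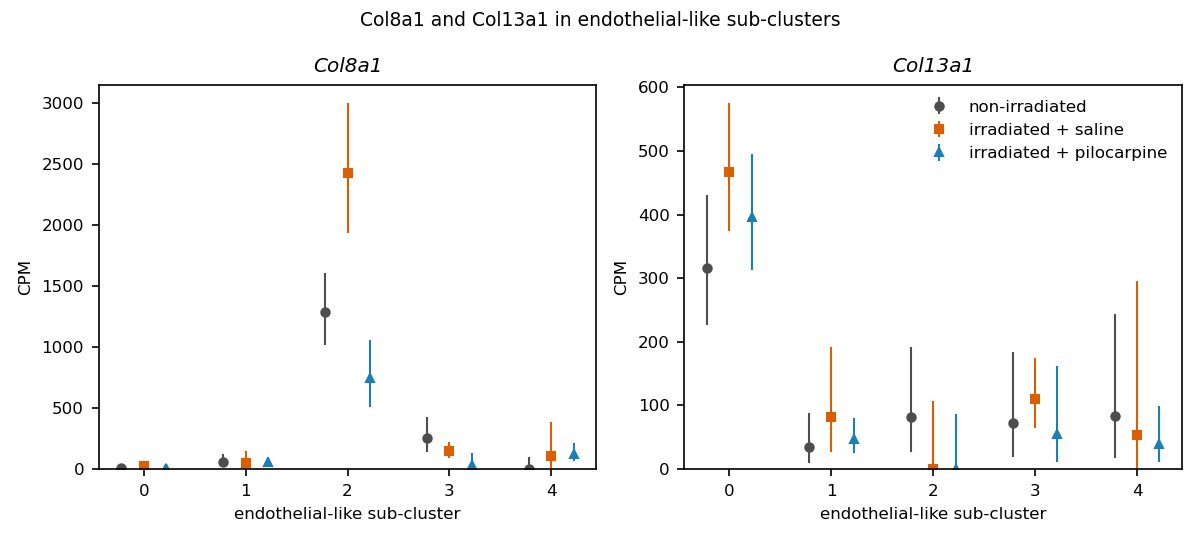
Level in CPM (y axes) of Col8a1 and Col13a1 in the 5 sub-clusters of endothelial-like nuclei (x axes), by library, with 95% Poisson intervals. Col8a1 is highest in sub-cluster 2, with 2424 CPM in irradiated + saline and 748 CPM in irradiated + pilocarpine, and Col13a1 in sub-cluster 0.

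Col7a1 encodes the chain of the anchoring fibrils that tie epithelium to stroma, and it was the collagen of acinar-like nuclei. There 4156, 2371 and 2420 UMIs gave 330, 215 and 192 CPM, with the non-irradiated library highest and no overlap of the intervals. The ratio was 0.654 (0.621 to 0.688) for saline and 0.583 (0.554 to 0.613) for pilocarpine against non-irradiated, and 0.891 (0.842 to 0.944) between pilocarpine and saline. The first of these passed 1.5-fold in 2 of 6 other settings and ranged up to 0.736, and the second passed in 6 of 6. Non-irradiated acinar-like nuclei lay mostly in clusters 2 and 3 and irradiated ones in clusters 0 and 1. The non-irradiated library was highest within each of these 4 clusters. Within cluster 1 Col7a1 was at 408, 292 and 238 CPM, within cluster 0 at 256, 198 and 173 CPM and within cluster 2 at 296, 285 and 167 CPM. Within cluster 3 it was at 404, 307 and 252 CPM. In clusters 2 and 3 the intervals of the non-irradiated and irradiated + saline libraries overlapped. The saline library had 131 and 91 nuclei there. The adjacent genes Uqcrc1 and Ucn2 did not share the direction in acinar-like nuclei, at 32.3, 40.7 and 42.3 CPM and at 8.25, 9.36 and 11.7 CPM.

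Col7a1 was also read in every other class. In T or NK-like nuclei, which should lack it and had a median of 1519 UMIs against 1462 in fibroblast-like nuclei, it was at 244, 65.4 and 118 CPM, and in fibroblast-like nuclei at 126, 43.1 and 73.8 CPM. Irradiated + saline was lowest in each of these, as it was in endothelial-like nuclei at 170, 32.3 and 101 CPM. Within fibroblast-like nuclei most Col7a1 lay in sub-cluster 2, at 233, 177 and 159 CPM, whose leading genes included Dgkg and the acinar marker Ano1. Sub-cluster 0 held 59.6, 31.5 and 16.0 CPM. In every library the Col7a1 levels of fibroblast-like and endothelial-like nuclei were below that of T or NK-like nuclei. The T or NK-like level rested on 22, 14 and 31 UMIs, with intervals of 153 to 370, 35.8 to 110 and 80.4 to 168 CPM. Sub-cluster 2 lay above that level in both irradiated libraries. Whether the Col7a1 calls in fibroblast-like and endothelial-like nuclei are expression of those cells was not tested. They are not read as such here.

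**Figure D5:**
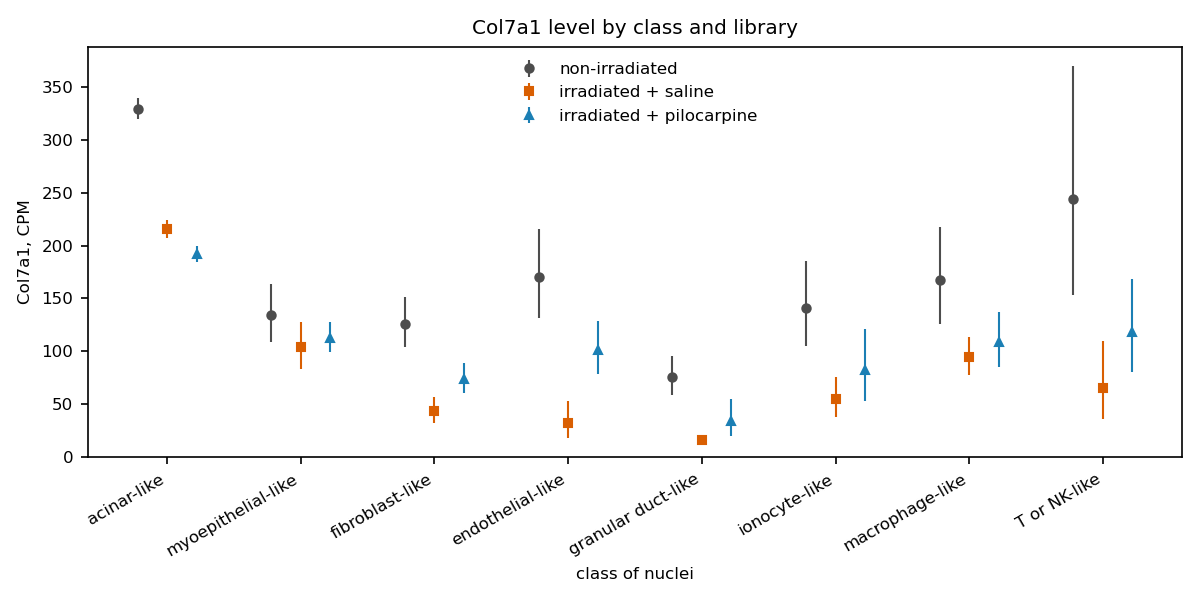
Level of Col7a1 in CPM (y axis) in 8 classes of nuclei (x axis) by library, with 95% Poisson intervals. Acinar-like nuclei have the highest level of these classes in each library (330, 215 and 192 CPM), and the non-irradiated library is highest in all 8 classes.

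Over the chains compared in acinar-like nuclei, Col7a1 included, 1 of 19 was higher (against 7.43% of all genes) and 10 were lower (52.6%, against 7.52%) in irradiated + saline against non-irradiated. The higher chain was Col28a1, a chain of von Willebrand factor A domains and a short helix, at 3.49, 9.54 and 7.14 CPM on 44, 105 and 90 UMIs. Its ratios to non-irradiated were 2.73 (1.91 to 3.98) and 2.05 (1.41 to 3.01), past 1.5-fold in 6 of 6 settings each. By cluster, Col28a1 was at 4.34, 9.62 and 7.56 CPM in cluster 0 and at 3.07, 7.42 and 6.69 CPM in cluster 1. In cluster 2 it was at 3.23, 2.94 and 5.21 CPM. All intervals overlapped within each of these clusters. The non-irradiated library had 3 UMIs in cluster 0 and 3 in cluster 1, and the irradiated libraries had 1 and 4 in cluster 2. In cluster 3 Col28a1 was at 4.20, 49.5 and 8.42 CPM on 13, 5 and 2 UMIs. There the interval of irradiated + saline lay above that of non-irradiated. The 7 Schwann markers, none at 0, summed to 311, 622 and 485 CPM in acinar-like nuclei, and their part was not tested. Apart from Col7a1, the lower chains were Col1a2, Col3a1, Col4a1, Col4a2, Col5a2, Col5a3, Col6a3, Col11a1 and Col15a1, at 5.31 CPM or less in any library. The summed fibroblast markers in acinar-like nuclei were 54.2, 24.3 and 37.4 CPM, also lowest in irradiated + saline, and their part was not tested. Pilocarpine against saline gave 6 higher of 17 (35.3%, against 4.08%) and 0 lower (against 3.10%), and against non-irradiated 2 of 22 higher (against 8.60%) and 8 lower (36.4%, against 5.44%).

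Col11a1, a chain of the minor fibrillar type XI collagen, had 801, 66 and 131 UMIs in the whole libraries. Its level was highest in a small unnamed cluster led by Smgc and Muc19, both markers of intercalated or proacinar cells, with 41, 18 and 28 nuclei. There 295, 23 and 5 UMIs gave 2485, 459 and 41.0 CPM. A UMI was found in 26 of 41, 3 of 18 and 2 of 28 nuclei, and 18 of the 23 UMIs in irradiated + saline came from 1 nucleus. Most of the 801 UMIs of the non-irradiated library lay outside both this cluster and the acinar-like nuclei, in classes not given here. The share of acinar-like nuclei with a UMI was 0.701%, 0.0562% and 0.0850%. The 6 markers of intercalated or proacinar cells, 2 of them at 0 in each library, summed to 61.1, 5.73 and 9.05 CPM in acinar-like nuclei, and their part in these shares was not tested. These few nuclei were not compared by the call rule. Col11a2, the partner chain, was instead highest in granular duct-like nuclei, at 32.7, 17.1 and 8.02 CPM on 30, 53 and 4 UMIs.

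The smaller epithelial classes had few chains to compare. In granular duct-like nuclei 1 of 6 chains was higher (against 8.50% of all genes) and 3 lower (against 9.74%) in irradiated + saline against non-irradiated, among them Col18a1 at 85.1, 46.7 and 40.1 CPM, a ratio of 0.549 (0.414 to 0.732). Pilocarpine against saline gave 2 of 6 higher (against 10.3%) and 2 lower (against 11.2%), and against non-irradiated 1 of 4 higher (against 6.83%) and 3 lower (against 11.3%). Col4a5 was at 37.1, 27.7 and 62.1 CPM there, highest in the pilocarpine library, with a ratio of 2.24 (1.44 to 3.42) to saline. In the same nuclei the 9 acinar markers summed to 36193, 19454 and 62589 CPM, with none at 0, and the 8 granular duct markers, with 1, 0 and 1 at 0, to 14939, 22245 and 14503 CPM. Their part in these results was not tested.

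In ionocyte-like nuclei Col4a5 was instead highest in the saline library, at 96.9, 146 and 72.3 CPM, with a ratio of 1.51 (1.02 to 2.30) to non-irradiated and of 0.494 (0.296 to 0.792) between pilocarpine and saline. Of 3 chains compared there, 1 was higher (against 12.1%) and 1 lower (against 10.1%) in saline against non-irradiated, 1 higher (against 12.8%) and 1 lower (against 14.8%) in pilocarpine against saline, and 0 higher (against 9.13%) and 1 lower (against 9.76%) in pilocarpine against non-irradiated. Cycling-like nuclei, which had 8 of the 9 acinar markers at 0.5 or more of the highest level, gave 0 of 1 higher (against 13.9%) and 1 lower (against 8.75%), then 1 of 2 higher (against 8.28%) and 0 lower (against 8.38%), and then 0 of 1 higher (against 13.8%) and 1 lower (against 7.04%), in the same order. Both lower calls were Col7a1, at 313, 186 and 153 CPM, and the higher one was Col20a1 on 20 against 10 UMIs.

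Chains below 30 UMIs in every class were Col2a1, the chain of cartilage collagen, with 4 UMIs in all, Col9a1 with 5, Col6a4 with 19, Col22a1 with 20, Col9a2 with 56, Col25a1 with 60 and Col10a1 with 72. Col10a1 overlaps the coding gene Nt5dc1 on the opposite strand. In all, 14 chain genes overlap another counted gene, 2 of them on the same strand, and the strand setting of the counting is not given in the sources used here.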

How the data were processed

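The deposited values are raw counts: the authors made UMI counts per gene and barcode with Cell Ranger 7.0.1 on GRCm38, per the submitters' processing notes. Whether intronic reads were counted is not given in the sources used here. Barcodes under 500 detected genes or above 5% mitochondrial UMIs were dropped, and the rest were clustered together with scanpy 1.11.5 (3000 variable genes, 30 components, 15 neighbours, Leiden resolution 1). UMIs were summed per class and library and given as CPM with exact Poisson intervals, and ratios have exact conditional binomial intervals at 95%. Ratios needed 100 nuclei of a class per library. The ratio code was tested on simulated data. No test between groups was possible with 1 library each. A cluster took the name of the marker list with the highest median level, if that was at least 0.5 of the highest cluster's, unless another list had more genes among its top 10. Chains with at least 30 UMIs in a class were named with values, and of the pathway lists the 2 largest and 2 smallest ratios with at least 50 UMIs. Members, lists and rules were chosen with earlier results of these data known. Gene positions are from GENCODE vM21. Protein sequences were not used here.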

Additional observations from a re-analysis of the deposited data

Results flagged for a closer look

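Some chains were past 1.5-fold in opposite directions in different classes under the same comparison, with intervals that leave out 1 on both sides. Whether the directions differ between the classes was not tested, since each group is 1 library. Col14a1 was at 2.28 in myoepithelial-like and 0.615 in fibroblast-like nuclei for irradiated + saline over non-irradiated, and at 2.30 and 0.653 for irradiated + pilocarpine over non-irradiated. Col4a2 was at 1.52 in fibroblast-like and 0.501 in acinar-like nuclei for irradiated + saline over non-irradiated, the latter on 14 against 32 UMIs. Col4a5 was at 0.631 in fibroblast-like and 1.58 in acinar-like nuclei for irradiated + pilocarpine over irradiated + saline, the latter on 67 against 37 UMIs.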

How the results depend on the processing

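Each group is 1 library of 1536 to 2113 median UMIs per nucleus, so differences between mice cannot be told apart from differences between groups, and chains on few UMIs carry wide intervals. No paired analysis was possible because no group has a second library. The ratios of summed collagen level stayed within the counting interval in 49 recomputations and moved outside it in 50. In the following, S is irradiated + saline, P is irradiated + pilocarpine and N is non-irradiated. For fibroblast-like nuclei, S over N became 0.865 with a minimum of 1000 genes, 0.892 with nuclei thinned to 800 UMIs, 0.912 without the 8% of nuclei with the highest doublet scores, 1.06 with each library clustered alone and 0.920 as a mean over nuclei. P over S became 0.986, 0.957, 0.959 and 0.920 with 1000 genes, thinning, doublet scores and the mean over nuclei, and P over N 0.875 with doublet scores and 0.892 with libraries clustered alone. For myoepithelial-like nuclei, P over S became 0.859 with a minimum of 200 genes, 0.936 with 1000 genes, 0.932 with thinning, 0.944 with doublet scores, 0.969 with libraries clustered alone and 0.935 as a mean over nuclei. P over N became 0.958, 0.956, 0.958, 0.956 and 0.974 under the last 5 of these, and S over N 0.987 with libraries clustered alone. For endothelial-like nuclei, P over S became 1.09 and P over N 0.961 with 200 genes, S over N 0.653 and P over S 1.23 with libraries clustered alone, and S over N 1.01 and P over N 0.866 as a mean over nuclei. Leaving out the chain with the most UMIs, or subtracting the acinar-like level, moved no summed ratio outside its interval. Another 3 settings were chosen after seeing the data. Equal weights for sub-clusters gave 0.899, 0.980 and 0.881 in fibroblast-like nuclei (S over N, P over S, P over N), 0.932 and 0.941 in myoepithelial-like (S over N, P over S) and 1.04 and 0.680 in endothelial-like nuclei (S over N, P over S). Leaving out the sub-cluster lowest in the class's own markers gave 0.852 and 0.975 in fibroblast-like (S over N, P over S), 0.987, 0.949 and 0.936 in myoepithelial-like (S over N, P over S, P over N) and 1.17 and 0.923 in endothelial-like nuclei (P over S, P over N). Leaving genes that are higher in acinar-like nuclei out of the total gave 0.826, 0.964 and 0.797 in fibroblast-like, 0.982, 0.909 and 0.893 in myoepithelial-like (each S over N, P over S, P over N) and 1.01 in endothelial-like nuclei (P over S). The cause of these shifts was not tested.

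Of the recomputed ratios of single chains, 1669 stayed within the counting interval, 220 moved and 11 turned a called direction. In fibroblast-like nuclei a minimum of 1000 genes gave Col4a6 1.64 (S over N) and 3.05 (P over N) and Col4a4 1.19 (P over N), and equal weights for sub-clusters gave Col4a4 1.05 (P over N) and Col24a1 0.980 (S over N). In myoepithelial-like nuclei Col20a1 (P over N) became 0.755 with thinning, 0.951 with libraries clustered alone and 0.952 as a mean over nuclei. In endothelial-like nuclei Col3a1 (P over S) became 1.10 with thinning and Col13a1 (P over S) 1.09 with libraries clustered alone. In acinar-like nuclei Col11a2 (P over N) became 1.13 with a minimum of 1000 genes. The counts of chains past 1.5-fold moved by more than 1.5 times in 40 recomputations and less in 32, with a minimum of 10 or 100 UMIs or a fold of 2. In fibroblast-like nuclei, the 4 higher and 8 lower chains of S over N became 1 and 3 at a fold of 2, with 5 lower at a minimum of 100 UMIs. The 2 higher and 5 lower of P over S became 0 and 2 at a fold of 2, with 3 lower at 100 UMIs, and the 0 higher and 10 lower of P over N became 1 higher at 10 UMIs and 2 lower at a fold of 2. In acinar-like nuclei S over N went from 1 higher to 3 at 10 UMIs and from 10 lower to 1 at 100 UMIs, 20 at 10 UMIs and 6 at a fold of 2. There P over S went from 6 higher to 1 at 100 UMIs, 10 at 10 UMIs and 1 at a fold of 2, and from 0 lower to 4 at 10 UMIs. P over N went from 2 higher to 4 at 10 UMIs and 1 at a fold of 2, and from 8 lower to 1, 16 and 2 at 100 UMIs, 10 UMIs and a fold of 2. In myoepithelial-like nuclei S over N went from 2 higher to 1 at 100 UMIs or a fold of 2 and from 0 lower to 2 at 10 UMIs. P over S went from 2 lower to 1, 4 and 0 at 100 UMIs, 10 UMIs and a fold of 2, and P over N from 3 higher to 1 at a fold of 2 and from 3 lower to 5 at 10 UMIs and 0 at a fold of 2. In endothelial-like nuclei S over N went from 1 higher to 3 at 10 UMIs and 0 at a fold of 2, and from 3 lower to 0, 6 and 1 at 100 UMIs, 10 UMIs and a fold of 2. P over S went from 1 higher to 0 at 100 UMIs and 9 at 10 UMIs and from 3 lower to 6 at 10 UMIs, and P over N from 0 higher to 4 at 10 UMIs and from 4 lower to 1 at a fold of 2.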
